A study of Mus musculus with 2 samples.

Results

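Teneurins are large transmembrane adhesion proteins that join neighboring cells, above all neurons that are wiring up. The mouse has 4 of them, encoded by Tenm1 to Tenm4, which the deposited peak table names by the older symbols Odz1 to Odz4. Their peaks were taken as the rows with one of these gene names, which gave 25 of 8226 peaks, at Odz1, Odz2 and Odz4. No row carries the name Odz3. A further 8 rows have no gene name but carry the transcript accession NM_001145937, which RefSeq pairs with Tenm3. Added here, they bring the family to 33 peaks at 4 genes. The genes were selected on the number of their peaks, since Tenm2 heads the table, so counts of peaks are given as a description with no test.

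The measurement is DamID. A chromatin protein is fused to the bacterial adenine methyltransferase Dam, which then leaves methylated GATC sequences wherever the protein dwells. The protein studied was Dnmt1, the maintenance methyltransferase that copies CpG methylation onto the new strand after replication. One group of embryos was injected with Dnmt1-V5-Dam and the control group with Dam alone, a measure of how readily a site can be reached. The embryos were of the strain BCF1, a cross of C57BL/6 and CBA/CA, from hormone-primed females 5 weeks old. The strain of the males is not named. Both groups were collected at the 4- to 8-cell stage and pooled, 50 embryos each, into 1 library per group. No deletion of the embryo's own Dnmt1 is named in the labels. With 1 library per group, a difference between the libraries has no replicate check. Read totals are not stated for either library, and the depth is therefore unknown.

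The extracellular part of a teneurin ends in a large barrel-shaped domain that binds latrophilins, a family of adhesion receptors coupled to G proteins. FLRT proteins bind latrophilins as well, and Unc5 receptors bind FLRTs. Teneurins also pair with teneurins on the opposite cell, and they are best known for matching axons to their targets in the visual system and hippocampus. All 4 genes have very large introns and border wide stretches with few genes. Each gene was mapped on the single transcript model that the table gives for it, in mm9 coordinates, and distances are from the start of that model. Other models of the same genes were not compared, so inside and upstream hold for these models alone.

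Tenm2, on the minus strand of chromosome 11 from 35820171 to 36757745, held 17 peaks, the most of any gene in the table. Of these, 7 lay inside the 938 kb body and 10 upstream of it. None lay downstream. The 7 peaks in the body began 192 kb after the start and were spread from there to 822 kb. No peak thus fell in the leading 20.5% of this model. In order from the start, their heights in the Dnmt1-Dam library were 7, 7, 8, 9, 12, 7 and 7. The Dam-only height was 1 at 6 of them. It was 6 at the peak of height 12, 629 kb into the gene at position 36128411. That peak was the highest of the 7 for Dnmt1-Dam and also the one that Dam alone marked, with a ratio of 2, the lowest that the table contains.

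The 10 upstream peaks of Tenm2 fell into a near and a far group. The nearest lay at -23.9 kb (a negative distance is upstream), with a height of 8 against 1 for Dam-only, in a simple repeat. A group of 5 followed between -273 and -357 kb. It included a run of 3 peaks within 190 bp, from 37030581 to 37030771, with heights of 11, 13 and 11 against 1 each. The library fragments, of around 300 bp, are longer than this run. The highest, of 13, was the top of all 17 Tenm2 peaks and lay in a SINE, a short non-autonomous retroelement. At -308 kb a peak in a SINE had a height of 11 against 5, and at -357 kb a peak in a LINE had 7 against 1. The far group, at -1063, -1082, -1469 and -1736 kb, had heights of 7, 8, 8 and 8, each against 1. Between the near and the far group, no peak was listed.

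Tenm3 shared the upstream peaks but not those in the body. Its model lies on the minus strand of chromosome 8 from 49311019 to 49760044. None of its 8 peaks lay inside this 449 kb body, and all 8 were upstream. Ordered by distance, they were at -80.0 and -382 kb with heights of 7 and 7, at -957 kb with a pair of 9 and 10, at -1108 kb with a pair of 9 and 15, and at -1374 and -1981 kb with 7 and 8. The Dam-only height was 1 at each of the 8. The members of the first pair are 120 bp apart, at 50716761 and 50716881, and those of the second 110 bp apart, at 50867801 and 50867911. The peak of height 15 lay in a LINE, the class of autonomous non-LTR retroelements. With 8 peaks, Tenm3 ranks 15th by peak number together with the other genes that hold 8, although no row gives its name.

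Tenm4, on the plus strand of chromosome 7 from 103359147 to 104057064, held 3 peaks in its 698 kb body and 4 upstream. It had the highest peak of the family, at position 102420681 and -938 kb, where the heights were 21 against 2, in a LINE. The next highest lay at -297 kb in an LTR element, the class that holds the endogenous retroviruses, with 16 against 2. The other 2 upstream peaks, at -773 and -392 kb, had heights of 8 and 7 against 1. Inside the gene the heights were 7, 8 and 9, each against 1. The peak of 7, at 5.93 kb from the start, is the closest to a start of all 33 and falls outside the promoter classes of the table. The other 2 lay at 223 and 235 kb, the latter in a LINE.

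Tenm1 lies on the X chromosome, minus strand, from 39885570 to 40627963. It held 1 peak, 566 kb into its 742 kb body at position 40062451, with a height of 7 against 1 and no repeat named. No peak was assigned outside the gene. The X chromosome as a whole held 1.18 peaks per Mb (95% exact Poisson interval 1.02 to 1.36), against 3.25 (3.18 to 3.33) on the autosomes. The labels do not say which embryos were male or female.

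**Figure D1:**
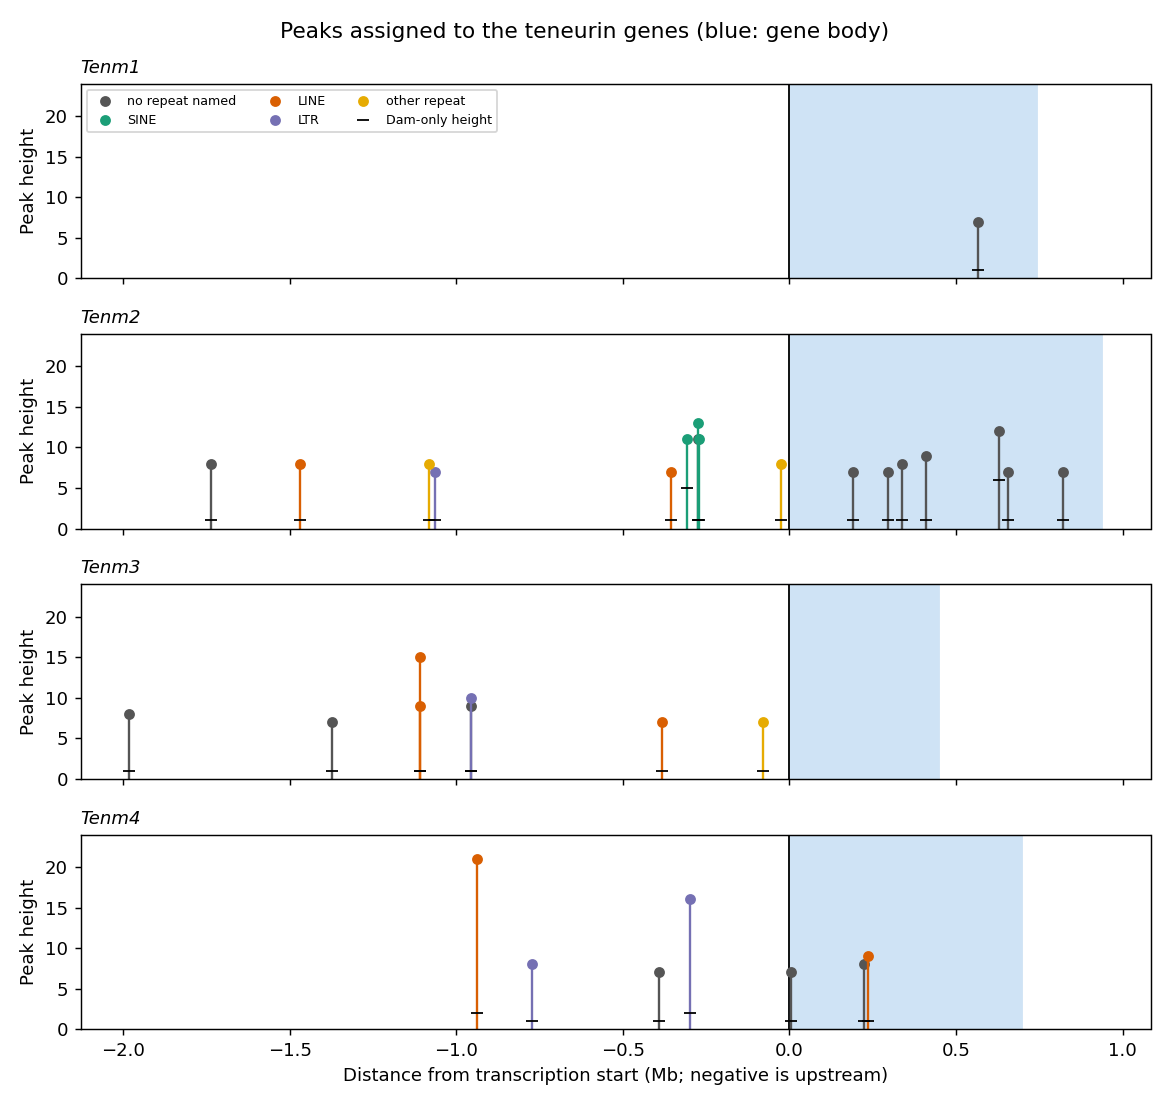
Peaks of Tenm1 to Tenm4 by distance from the transcription start in Mb (x axis; negative is upstream) and by height in the deposited signal (y axis). Stems with dots are Dnmt1-Dam heights, colored by the repeat class named at the peak, black dashes are Dam-only heights and the blue area is the gene body. All 22 peaks outside a body lie upstream, Tenm3 has none in its body, and the highest peak, of 21, is far upstream of Tenm4.

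Of the peaks assigned to the 4 genes, 0 lay downstream and 22 upstream. Of all 4689 peaks outside their assigned gene, 62.8% (61.4 to 64.2, exact Clopper-Pearson interval) lay upstream. The table assigns a peak to 1 gene, so the space around each gene bears on these counts. Upstream of Tenm2, the next gene listed is Mat2b, 3.74 Mb away. The interval between them held 11 peaks, 10 assigned to Tenm2 and 1 to Mat2b, or 2.95 per Mb (1.47 to 5.27). Upstream of Tenm3, Aga follows after 4.84 Mb, with 10 peaks between them, or 2.07 per Mb (0.991 to 3.80). Upstream of Tenm4, the next gene listed is A830059I20Rik (Fam181b) at 3.13 Mb, with 6 peaks in between, or 1.92 per Mb (0.704 to 4.17). The mean over the whole chromosome was 4.17 for chromosome 11, 3.42 for chromosome 8 and 3.06 for chromosome 7. Each of the 3 flanks was thus below the mean of its chromosome, with an interval that contains it. The interval upstream of Tenm1, 1.09 Mb to the gene Wdr40c, held 0 peaks, which allows up to 3.38 per Mb.

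In the order of protein-coding genes of RefSeq, the downstream neighbors are Sh2d1a for Tenm1, Wwc1 for Tenm2, Dctd for Tenm3 and Nars2 for Tenm4. None of these 4 neighbors has a peak. Of the upstream neighbors, Tex13c1 of Tenm1 and Gm15501 of Tenm4 have 0 as well, while Mat2b of Tenm2 has 1 and Aga of Tenm3 has 3. Over all genes with a curated messenger RNA, 22.6% have an assigned peak, so the absence at these 4 is not read as a result. Up to the next gene listed in the table, a stretch that can hold other genes, the downstream side of Tenm2 had 1 peak over 1.17 Mb, or 0.853 per Mb (0.0216 to 4.75), which is assigned to another gene. Downstream of Tenm4, 0 peaks were listed over 1.44 Mb, which allows up to 2.56 per Mb. Downstream of Tenm1, 0 were listed over 0.423 Mb, which allows up to 8.73 per Mb, and downstream of Tenm3 0 over 0.235 Mb, which allows up to 15.7 per Mb. The part that the unequal space on the 2 sides has in these counts was not tested.

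None of the 33 peaks lay in a promoter class, defined in the table as up to 10 kb upstream and 1 kb downstream of a start, and none lay in or near a CpG island. The shares of all peaks in these classes are not given here, so the absence is not read as a trait of these genes. The sequence just before the starts is shown with the motifs that the 2 enzymes of the fusion act on, GATC for Dam and CG for Dnmt1. RefSeq (GRCm38.p6) gives 5 windows listed as promoters for the 4 genes, of which 3 are printed here. Each is 250 bases up to the start, read 5′ to 3′ on the strand of the gene. Capitals mark GATC and CG, which read the same on both strands and do not overlap in these windows. Whether these starts are those of the mm9 models, or the first start of each gene, was not compared. A window may therefore not be a promoter in use. Tenm1 is at chrX:43274785-43275034 (minus), Tenm2 at chr11:36944242-36944491 (minus) and Tenm4 at chr7:96170994-96171243 (plus).
Tenm1: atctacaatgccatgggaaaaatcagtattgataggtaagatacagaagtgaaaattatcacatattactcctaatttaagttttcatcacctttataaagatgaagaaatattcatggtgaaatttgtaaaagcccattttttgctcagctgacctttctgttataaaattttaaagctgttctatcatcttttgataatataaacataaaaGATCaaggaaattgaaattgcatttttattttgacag
Tenm2: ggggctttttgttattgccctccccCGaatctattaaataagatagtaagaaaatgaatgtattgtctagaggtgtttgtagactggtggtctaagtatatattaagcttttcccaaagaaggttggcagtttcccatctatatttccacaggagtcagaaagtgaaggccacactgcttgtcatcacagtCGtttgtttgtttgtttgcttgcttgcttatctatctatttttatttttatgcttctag
Tenm4: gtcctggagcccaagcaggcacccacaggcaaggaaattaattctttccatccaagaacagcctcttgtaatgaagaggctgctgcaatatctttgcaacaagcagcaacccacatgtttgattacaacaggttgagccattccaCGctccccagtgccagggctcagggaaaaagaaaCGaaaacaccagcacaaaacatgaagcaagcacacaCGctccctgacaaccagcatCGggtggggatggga

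The Tenm1 window holds 1 GATC and 0 CG, at a GC content of 27.2%. The window of Tenm2 holds 0 GATC and 2 CG, and the one of Tenm4 0 and 4. The windows not printed, those of Tenm3 and the second start of Tenm4, hold 0 GATC and 8 CG each. A GATC is found in 41.9% of all 32851 such windows, whose median CG number is 6 (interquartile range 2 to 16). The windows of Tenm1, Tenm2 and the printed one of Tenm4 are below that median, and the other 2 above it but within the range. These letters describe the windows alone, and no match says only that the motif is not in them.

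Heights at teneurin peaks were set beside those of all peaks in the table. Over the 33 peaks the Dnmt1-Dam height had a median of 8 (interquartile range 7 to 10, lowest 7, highest 21), against 9 (7 to 11) over all peaks. The smallest listed height, 7, was found at 12 of the 33 (36.4%) and at 26.8% of all peaks. A height of 15 or more was reached by 3 of the 33, all upstream, at Tenm3 and Tenm4. That is 9.09%, and the share over all peaks was 8.66%. The Dam-only height was 1 at 29 of the 33 (87.9%) and at 75.8% of all peaks. The ratio of the heights was at least 8 at 19 of the 33 (57.6%), against 50.2% of all peaks. The table lists only positions that are higher for Dnmt1-Dam, so these ratios were fixed to be high and nothing is read from them. The median log2 ratio, with a pseudocount of 1 and the Dam-only heights scaled to the sum of the Dnmt1-Dam heights, was 0.215 both for the 33 and for all peaks.

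**Figure D2:**
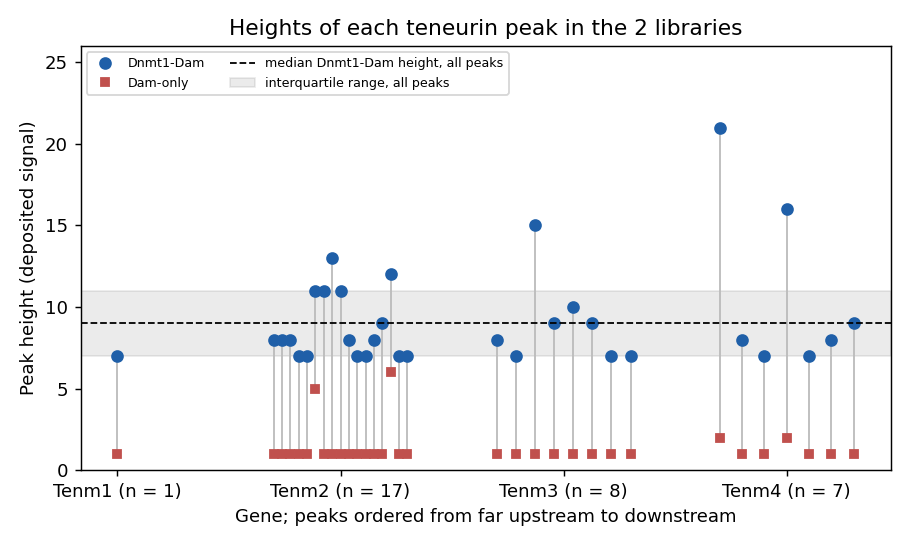
Height of each teneurin peak (y axis, deposited signal) in the Dnmt1-Dam library (circles) and the Dam-only library (squares), with the peaks of each gene ordered from far upstream to downstream (x axis). The dashed line is the median of all peaks, 9, and the gray band their interquartile range, 7 to 11. Of the teneurin peaks, 5 rise above the band and 4 have a Dam-only height above 1.

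Heights were also compared between the bodies and the flanks. The 11 peaks inside had a median height of 7 (highest 12) and the 22 outside a median of 8 (highest 21). Of the 11 inside, 4 had a ratio of at least 8, and of the 22 outside 15 did. Over all peaks, inside and outside together, it was 50.2%, and their split is not given here. Where the Dam-only height is 1 the ratio repeats the height, so nothing further is read from these counts. The ranges of the heights overlap, and peaks of one gene are not replicates, so the difference in height was not tested.

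The repeats named at the peaks were compared between the bodies and the flanks. A repeat was named at 1 of the 11 peaks inside the bodies (9.09%, exact Clopper-Pearson interval 0.230 to 41.3), a LINE in Tenm4. Upstream it was 16 of 22 (72.7%, 49.8 to 89.3), an interval that does not overlap the first. Inside Tenm2, 0 of the 7 peaks named a repeat, where a count of 0, with its limit taken as 3 peaks, allows a share of up to 42.9%, and 8 of the 10 upstream did. In Tenm4 the numbers were 1 of 3 and 3 of 4, and upstream of Tenm3 5 of 8. Over all peaks a repeat was named at 33.4% (31.8 to 35.0) inside gene bodies and 44.1% (42.7 to 45.6) outside. The share inside the teneurin bodies thus has an interval that contains the share of all body peaks. The interval of the upstream share lies above that of all outside peaks. It overlaps, however, that of the outside peaks of other genes with a body of 500 kb or more, 45.0% (36.8 to 53.3). When peaks up to 1 kb apart were merged to the highest of them, the upstream share was 14 of 18 (77.8%, 52.4 to 93.6). Without Tenm2 it was 66.7% (34.9 to 90.1), an interval that contains 44.1%. Without Tenm3 it was 78.6% (49.2 to 95.3). Inside the bodies, the share without Tenm2 was 25% (0.631 to 80.6), an interval that overlaps the upstream one without Tenm2. The lack of overlap between the inside and upstream intervals thus depends on Tenm2. The comparison was chosen after these values were seen, and the intervals cover counting error only.

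LINEs were the most frequent class. They were named at 7 of the 33 peaks (21.2%, 8.98 to 38.9), against 8.18% (7.60 to 8.79) of all peaks. Of the 7, 2 are the pair 110 bp apart upstream of Tenm3, and the LINE share with such pairs merged was not calculated. All but the LINE peak in the body of Tenm4 lie upstream, while the share of all peaks covers those inside and outside genes. No excess of LINEs is therefore read from these shares. LTR elements were named at 4 (12.1%, 3.40 to 28.2), against 10.8%, and SINEs at 3 (9.09%, 1.92 to 24.3), against 17.1%. All 3 SINE peaks lay between -273 and -308 kb of Tenm2, and 2 of them are in the run described above. Simple repeats were named at 2 peaks, both upstream of Tenm2, and a DNA transposon at 1, upstream of Tenm3. Retroelements of the 3 classes together were at 14 of 33 (42.4%, 25.5 to 60.8), an interval that contains the 35.0% of all peaks.

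**Figure D3:**
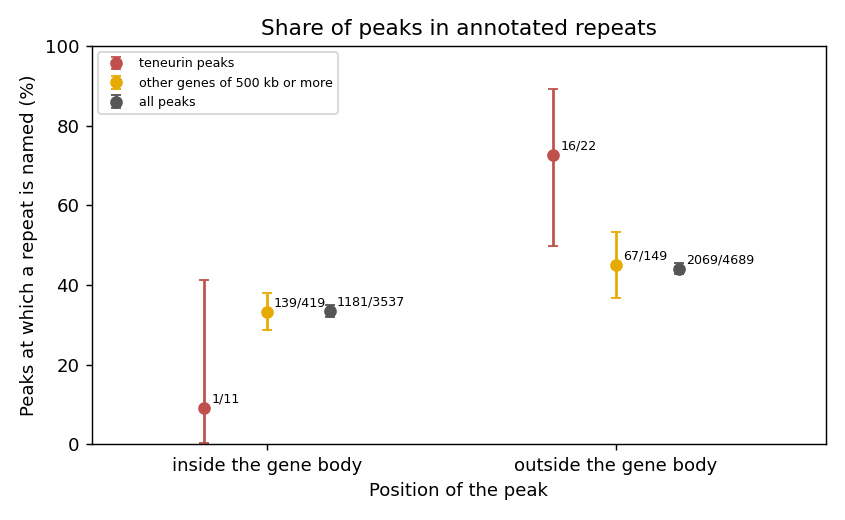
Share of peaks at which the table names a repeat (y axis, %), inside and outside the gene body (x axis), for teneurin peaks, other genes with a body of 500 kb or more and all peaks. Points are shares, bars exact 95% intervals and labels the counts. Teneurin peaks go from 1 of 11 inside to 16 of 22 outside, the other long genes from 139 of 419 to 67 of 149.

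The bodies differed in peak density, within wide intervals. Tenm2 had 7.47 peaks per Mb (95% exact Poisson interval 3.0 to 15.4), Tenm4 4.30 (0.886 to 12.6), Tenm1 1.35 (0.0341 to 7.50) and Tenm3 0 (0 to 8.22). Each interval overlaps that of every other gene, and the differences were not tested. The 4 bodies together, 2.83 Mb, had 3.89 per Mb (1.94 to 6.96), close to the autosomal mean. Without Tenm2 the value was 2.12 (0.577 to 5.42). Each single interval contained the mean of its own chromosome.

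Other long genes were set beside them. The table holds 151 other genes with a body of 500 kb or more, and a gene is in the table only if it has a peak. Their median was 3.08 peaks per Mb (interquartile range 1.82 to 4.55) and their pooled density 3.36 (3.04 to 3.69). Tenm2 lay above 140 of the 151, Tenm4 above 109 and Tenm1 above 23. Only 4 of the 151 are on the X chromosome, as Tenm1 is. These had 0.784 per Mb (Il1rapl2), 1.33 (Dmd), 1.97 (Aff2) and 2.81 (Diaph2), beside 1.35 for Tenm1. The genes nearest to Tenm2 in length were Thsd7b with 4 peaks in its body, Epha6, an ephrin receptor gene, with 6, and Grm7, a metabotropic glutamate receptor gene, with 3. They had 1, 2 and 1 peaks outside, where Tenm2 had 10. Over the 151 genes the number outside had a median of 0 and reached 13. Near to Tenm4 in length were Fgf14 (3 inside and 0 outside) and the potassium channel gene Kcnma1 (5 and 3). For Tenm1 they were the receptor tyrosine kinase gene Alk (4 and 0), Mdga2 (1 and 2) and Iqschfp (3 and 0), none of them on the X chromosome. For Tenm3 they were Zfpm2 (0 and 1), Cadps (2 and 1) and the urea transporter gene Slc14a2 (0 and 4). An empty body of this length was thus listed for 2 of the 3 genes closest to Tenm3.

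**Figure D4:**
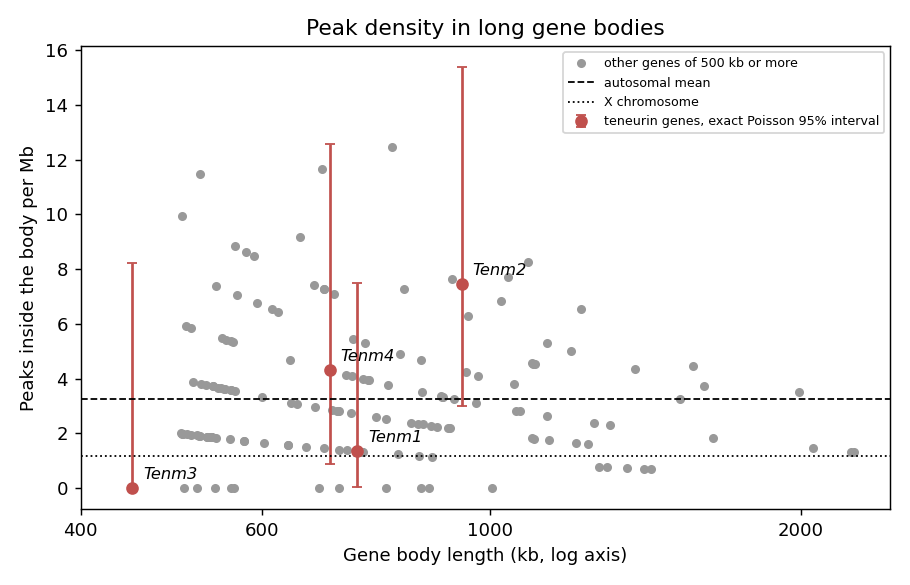
Peaks inside the gene body per Mb (y axis) against body length in kb (x axis, log scale) for the teneurin genes (red, bars are exact 95% Poisson intervals) and the 151 other genes of 500 kb or more in the table (gray). Dashed and dotted lines are the autosomal mean of 3.25 and the X chromosome at 1.18. Tenm2, at 7.47, is above 140 of the gray points, and the interval of Tenm3, at 0, reaches 8.22.

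The pattern most like Tenm2, measured as the distance in the pair of peak numbers inside and outside the body, was that of Auts2, with 5 inside and 6 outside. Unc5d followed with 4 and 6, then Kirrel3 (2 and 8), Car10 (5 and 5) and Zfhx3 (2 and 8). The distance from the 7 and 10 of Tenm2 was 4.47 for Auts2 and 5.39 for the last 3 of these genes.

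Genes linked to teneurins were examined as a list of 14. It holds the latrophilins, the FLRTs and Unc5 receptors, which are linked through latrophilins, and other proteins reported as partners. A peak was assigned to 8 of the 14, and 3 had one in the body. Over all genes with a curated messenger RNA the shares were 22.6% with an assigned peak and 11.6% with one in the body, and neither is matched for gene length. Among the latrophilins, Adgrl2 (Lphn2) had 5 peaks, all outside its 139 kb body, the highest of 16 against 1 at -388 kb. Adgrl3 (Lphn3), whose body spans 774 kb, had 2 inside and 1 upstream, the highest of 12 against 1 at 390 kb into the gene. Adgrl1 (Lphn1) had 0. Of the FLRT genes, Flrt2 had 2 peaks, both upstream, the higher of 10 against 1 at -934 kb, and Flrt1 and Flrt3 had 0. Of the Unc5 receptor genes, Unc5d had 10 peaks, 4 of them in its 568 kb body, the highest of 24 against 1 in a SINE at 393 kb. Unc5b had 2 upstream peaks of height 11, and Unc5a and Unc5c had 0.

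Among the remaining partners described here, the dystroglycan gene Dag1 had 1 peak in its body, of height 7 against 1, at 1.33 kb from the start. Zic1, a zinc finger transcription factor gene, had 1 of 7 against 1 located 333 kb past its start. Mbd1, which encodes a protein that binds methylated DNA, had 0. In all, the list held 25 peaks with 7 in bodies, and Unc5d alone accounts for 10 of the 25. Over all peaks of the table, 57.0% lay outside the assigned gene.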

How the data were processed

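DamID was carried out with 2 libraries, 1 per group, and adenine methylation was measured. Per the labels' protocols, DNA was end-repaired, ligated to adapters, amplified by 15 cycles of PCR and size-selected near 300 bp. The tools were CASAVA and BWA and the build mm9, per the submitters' processing notes. For the peak caller and duplicate handling, nothing is stated in the sources used. The authors deposited 1 table of 8226 peaks with a signal height per library, whole numbers of unstated scaling, so no count model was used.

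Peaks were assigned as the table gives them, by gene name, or by accession where a name was missing (RefSeq, GRCm38.p6, names and gene order only; 443 of 473 unnamed rows were named). The recalculated location class matched for 8226 of 8226 peaks. Intervals (95%, exact Poisson or Clopper-Pearson) were made with Python 3.11.15 and SciPy 1.17.1. They were tested on simulated peaks drawn independently, as the intervals assume, which checks the code but not the close runs of the real peaks. The intervals cover counting error only, since PCR reads without molecular identifiers are not independent molecules. No p-value was computed. The members, lists and the rule for named genes (the 4 teneurin genes, for each the 3 genes nearest in length, the 5 nearest to the gene with most peaks by peak numbers, and partner genes) were chosen with earlier results of these data known. Of the genes this rule takes, 2 are not reported here. Alternatives were heights of 9 or 15 and more, 1 peak per 1 kb run, Dam-only heights of 1, extended bodies, pseudocounts, scaling, leaving out Tenm2, and, added after seeing the data, rows with a gene name alone.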

Additional observations from a re-analysis of the deposited data

How the results depend on the processing

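Of 37 recalculated summary values, 28 stayed within 1.5 times the main count, the main interval or the spread between peaks, 9 moved and 0 reversed. Counts, densities, shares and heights cannot change sign, so only the log2 ratio could have reversed. With heights of 9 or more, the family kept 13 peaks, 3 of them in bodies, at 1.06 per Mb, and 69.2% (38.6 to 90.9) named a retroelement. With heights of 15 or more, 3 peaks were left, 0 of them in bodies (0 per Mb), and 100% (29.2 to 100) named a retroelement. The share over all peaks at these heights is not given here, so nothing is read from the rise. Both settings keep fewer peaks by construction. The log2 ratio went from 0.215 to 2.17 without scaling, since the Dam-only heights are then not multiplied. Rows with a gene name alone gave 25 peaks and lost Tenm3 entirely. Extending the bodies by 10 kb took in 11 peaks and by 100 kb 13. No paired analysis was possible because each group is 1 library. Most teneurin peaks lie near the smallest listed height, so a threshold slightly higher removes many of them, and sites below it were not analysed here.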
